A study of Mus musculus with 25 samples.

Results

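The 9 genes described here were followed through white fat of mice on a normal diet (ND) or a high-fat diet (HFD), with or without the gene Acod1. They are the β-adrenergic receptors Adrb3 and Adrb1, the α-adrenergic receptors Adra1a and Adra2a, the natriuretic peptide receptors Npr1 and Npr3, the adenylyl cyclase Adcy3, the phosphodiesterase Pde3b and the protein kinase A subunit Prkar2b. They were listed by name, with no threshold on a value but with earlier results of these data known, and are 9 of 54752 genes in the files. All 9 had a row in every library, and each identifier matched 1 symbol.

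Noradrenaline released by sympathetic nerves and natriuretic peptides released by the heart are signals that can trigger fat breakdown. β receptors act through the G protein Gs on adenylyl cyclase, and the cAMP that is formed releases the catalytic subunits of protein kinase A from regulatory subunits such as Prkar2b, after which lipid droplet proteins and lipases are phosphorylated. α2 receptors oppose this through Gi, and Pde3b, which insulin activates, breaks cAMP down. Npr1 is a guanylyl cyclase that makes cGMP when a natriuretic peptide binds, while Npr3 binds the same peptides and removes them. Adrb3 is the receptor that adipocytes of rodents are known for.

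The data are 25 RNA-seq libraries of male C57BL/6NJ mice, 14 from epididymal (eWAT) and 11 from inguinal white adipose tissue (iWAT). In eWAT there were 4 wild type (WT) mice on ND, 5 WT mice on HFD and 5 Acod1-/- mice on HFD, and in iWAT 3, 5 and 3. Acod1-/- mice lack the enzyme that makes itaconate in every cell of the body, from a single edited allele (C57BL/6N-Acod1em1(IMPC)J/J), and no Acod1-/- mice on ND were analysed here. Both diets began at 5 weeks of age and lasted 16 weeks, and the HFD had 60% of its calories as fat. For iWAT Acod1-/- libraries 2 and 3 the labels give 17 and 18 weeks in one field and 16 weeks in their protocol, and which is right is not known. The labels do not tie eWAT and iWAT of a mouse to each other, so p-values measure the spread between libraries.

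The depth was 31.41 to 52.34 M reads counted on genes per library. Library numbers in the file headers fall into 2 series, with 14 and 11 libraries. Series 2 holds every ND library and only 1 WT HFD library (replicate 5) and 1 Acod1-/- library (eWAT replicate 5, iWAT replicate 3) of each depot. Diet is therefore largely confounded with series, and within series 2 the diet comparison rests on 1 HFD library. The Acod1-/- library of series 2 stood apart from the others of its group in Adrb3 and Adra1a in both depots, so results that rest on it are also given without it. Acod1 itself had 0 to 9 counts per library over all groups, too few to check the genotype labels. The adipocyte markers Adipoq, Plin1, Cidec, Lep, Fabp4 and Pparg were all expressed in every group. In iWAT their sum was 20511 to 25191 CPM on ND, below WT mice on HFD (37053 to 46924 CPM) and Acod1-/- mice (28672 to 41525 CPM). In eWAT it was 20064 to 31058, 18548 to 39435 and 32501 to 39384 CPM in the same order. The part of these differences in the diet, genotype and depot results was not tested. Other tissue was present in some libraries, and its part in the results was not tested. Epididymis markers summed to 1099 CPM in 1 eWAT ND library, skeletal muscle markers to 5382 CPM in 1 iWAT ND library, and lymphocyte markers to 370 to 561 CPM in the 3 iWAT ND libraries but 1.19 to 37.6 CPM in the 8 other iWAT libraries.

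Levels are given as CPM, counts scaled to library size and normalized on 1 scale for all 25 libraries, and comparisons between genes as FPKM, which also divides by cDNA length. Fold changes come from edgeR's quasi-likelihood test with Benjamini-Hochberg adjustment over all genes tested, and a gene was called when its adjusted p was under 0.1. In each fit 8 members were tested, and Adra2a fell below the filter of a mean of 1 CPM. In bulk tissue, fewer cells of a type and less RNA per cell cannot be told apart.

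Promoter windows from RefSeq, from 250 bases before to 50 after a start site, were used for 6 of the 9 members. They were searched on both strands for the cAMP response element TGACGTCA and its shorter form TGACG, which lies inside it. The full element was in none of the 8 windows of these members and in 1.79% of all 32851 windows. TGACG was in 3 of the 8, against 20.8% of all windows. Those 3, of Adrb1, Adra2a and Npr3, are shown because they hold a match, with TGACG in capitals. They lie at chr19:56721867-56722166 (Adrb1, plus strand), chr19:54045009-54045308 (Adra2a, plus strand) and chr15:11907322-11907621 (Npr3, minus strand) of GRCm38.p6, and TGACG starts 90, 69 and 50 bases before the start site.
Adrb1: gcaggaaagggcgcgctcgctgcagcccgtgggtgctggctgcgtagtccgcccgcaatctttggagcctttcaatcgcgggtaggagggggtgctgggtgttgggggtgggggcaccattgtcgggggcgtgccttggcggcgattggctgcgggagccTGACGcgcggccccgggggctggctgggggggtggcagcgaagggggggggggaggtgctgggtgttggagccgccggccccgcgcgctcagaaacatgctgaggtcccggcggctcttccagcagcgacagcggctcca
Adra2a: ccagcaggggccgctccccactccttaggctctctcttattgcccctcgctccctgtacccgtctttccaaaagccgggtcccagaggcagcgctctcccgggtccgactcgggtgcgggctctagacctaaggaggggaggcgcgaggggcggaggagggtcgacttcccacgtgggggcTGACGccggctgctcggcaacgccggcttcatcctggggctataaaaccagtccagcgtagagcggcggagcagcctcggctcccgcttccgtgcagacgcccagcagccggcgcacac
Npr3: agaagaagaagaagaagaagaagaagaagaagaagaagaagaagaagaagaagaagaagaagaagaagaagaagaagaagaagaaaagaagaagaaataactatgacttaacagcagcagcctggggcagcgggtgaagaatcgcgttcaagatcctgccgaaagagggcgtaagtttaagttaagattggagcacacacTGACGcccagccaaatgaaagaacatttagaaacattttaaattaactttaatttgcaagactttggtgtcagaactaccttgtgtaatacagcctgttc
A match is a string of letters and no evidence of binding. The Npr3 window opens with a repeat of gaa, whereas those of Adrb1 and Adra2a are 72.3% and 68.7% G and C.

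The 9 members spanned a wide range of abundance. In eWAT of ND mice Adrb3 (ENSMUSG00000031489, chromosome 8, 27225776 to 27250616, minus strand, GRCm38) was the most abundant member at 334 ± 57.3 FPKM (SD, n = 4). Prkar2b followed at 208 ± 36.6 FPKM, Npr3 at 80.1 ± 38.8 FPKM and Pde3b at 71.6 ± 11.4 FPKM. Npr1 (16.6 ± 3.12 FPKM) and Adcy3 (4.47 ± 0.947 FPKM) were lower, and Adrb1 (1.98 ± 0.303 FPKM), Adra1a (0.905 ± 0.225 FPKM) and Adra2a (0.390 ± 0.0971 FPKM) lowest. Adrb3 made up 94.0% to 96.4% of the summed FPKM of the 9 adrenergic receptor genes in these libraries. On HFD its share ranged from 53.4% to 88.3% in eWAT of WT mice and from 83.8% to 97.2% in Acod1-/- mice. In iWAT the share was 85.2% to 92.8% on ND, 59.1% to 84.3% in WT mice on HFD and 78.5% to 93.6% in Acod1-/- mice.

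Adrb3, the receptor through which noradrenaline drives lipolysis in rodent adipocytes, was lower on HFD in both depots. In eWAT its level was 861, 924, 1203 and 1399 CPM in the ND libraries and 51.9, 141, 294, 149 and 267 CPM in the WT HFD libraries. No HFD library reached the lowest ND library. The log2 fold change was -2.60 ± 0.51 (SE), a 6.07-fold lower level (edgeR, adjusted p = 0.00178). Against the 1 WT HFD library of series 2 it was -2.02 (edgeR, adjusted p = 0.0627). In iWAT the levels were 523, 579 and 497 CPM on ND and 65.4, 70.0, 237, 166 and 169 CPM on HFD, and again the groups did not overlap. Adrb3 fell by 1.88 on the log2 scale (SE 0.47, edgeR, adjusted p = 0.00862), and within series 2 the log2 fold change was -1.59 (adjusted p = 0.0283). The diet responses of the 2 depots differed by 0.69 on the log2 scale (95% interval -0.86 to 2.23), which was not called (edgeR, adjusted p = 0.55).

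In eWAT of Acod1-/- mice Adrb3 was higher than in WT mice on the same diet. Its levels were 952, 849, 1178, 1162 and 181 CPM in Acod1-/- libraries 1 to 5. Libraries 1 to 4 were above every WT HFD library, 3 of them within the ND range, and library 5, the one of series 2, lay inside the WT HFD range. Library 5 also had 1633 CPM of summed macrophage markers, against 412 to 707 CPM in libraries 1 to 4, and the part of series or of these cells in its level was not tested. The log2 fold change was 2.26 ± 0.48 (edgeR, adjusted p = 0.0144), or 4.78-fold, and 2.51 without library 5 (adjusted p = 0.00122). In iWAT the Acod1-/- levels were 838, 539 and 184 CPM, of which the last is the library of series 2. The log2 fold change of 1.84 ± 0.47 (95% interval 0.81 to 2.87) was not called (edgeR, adjusted p = 0.143). It was 2.28 without that library (adjusted p = 0.0182) and 2.36 within series 1 (adjusted p = 0.0476), and DESeq2's Wald test called it on all libraries (log2 fold change 1.88, adjusted p = 0.0142). The difference of the genotype effects between depots was -0.38 on the log2 scale (95% interval -1.88 to 1.12, edgeR, adjusted p = 0.899), and 0.04 without iWAT Acod1-/- library 3.

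The antisense gene Gm45470 overlaps Adrb3 and had 1.21% to 6.73% as many counts. Relative to the adipocyte gene Adipoq in the same library, the log2 FPKM ratio of Adrb3 was -3.00 to -2.49 in eWAT on ND, -5.63 to -4.40 in WT mice on HFD and -4.99 to -2.76 in Acod1-/- mice. In iWAT it was -3.20 to -2.94, -6.79 to -4.88 and -5.15 to -2.97 in the same order. In both depots the ND and WT HFD ranges of this ratio lay apart, and the lowest Acod1-/- value was that of the series 2 library. The part of Adipoq's own level in this ratio was not tested. This ratio was added after the data were seen and has no test. The brown adipocyte markers Ucp1, Cidea and Dio2 summed in iWAT to 68.7 to 987 CPM on ND. WT mice on HFD had 16.5 to 44.7 CPM of them there and Acod1-/- mice 47.6 to 92.6 CPM. In eWAT they summed to 3.55 to 13.2, 5.22 to 15.5 and 4.25 to 8.43 CPM (ND, WT HFD, Acod1-/-). The part of brown adipocytes in the Adrb3 values was not tested.

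**Figure D1:**
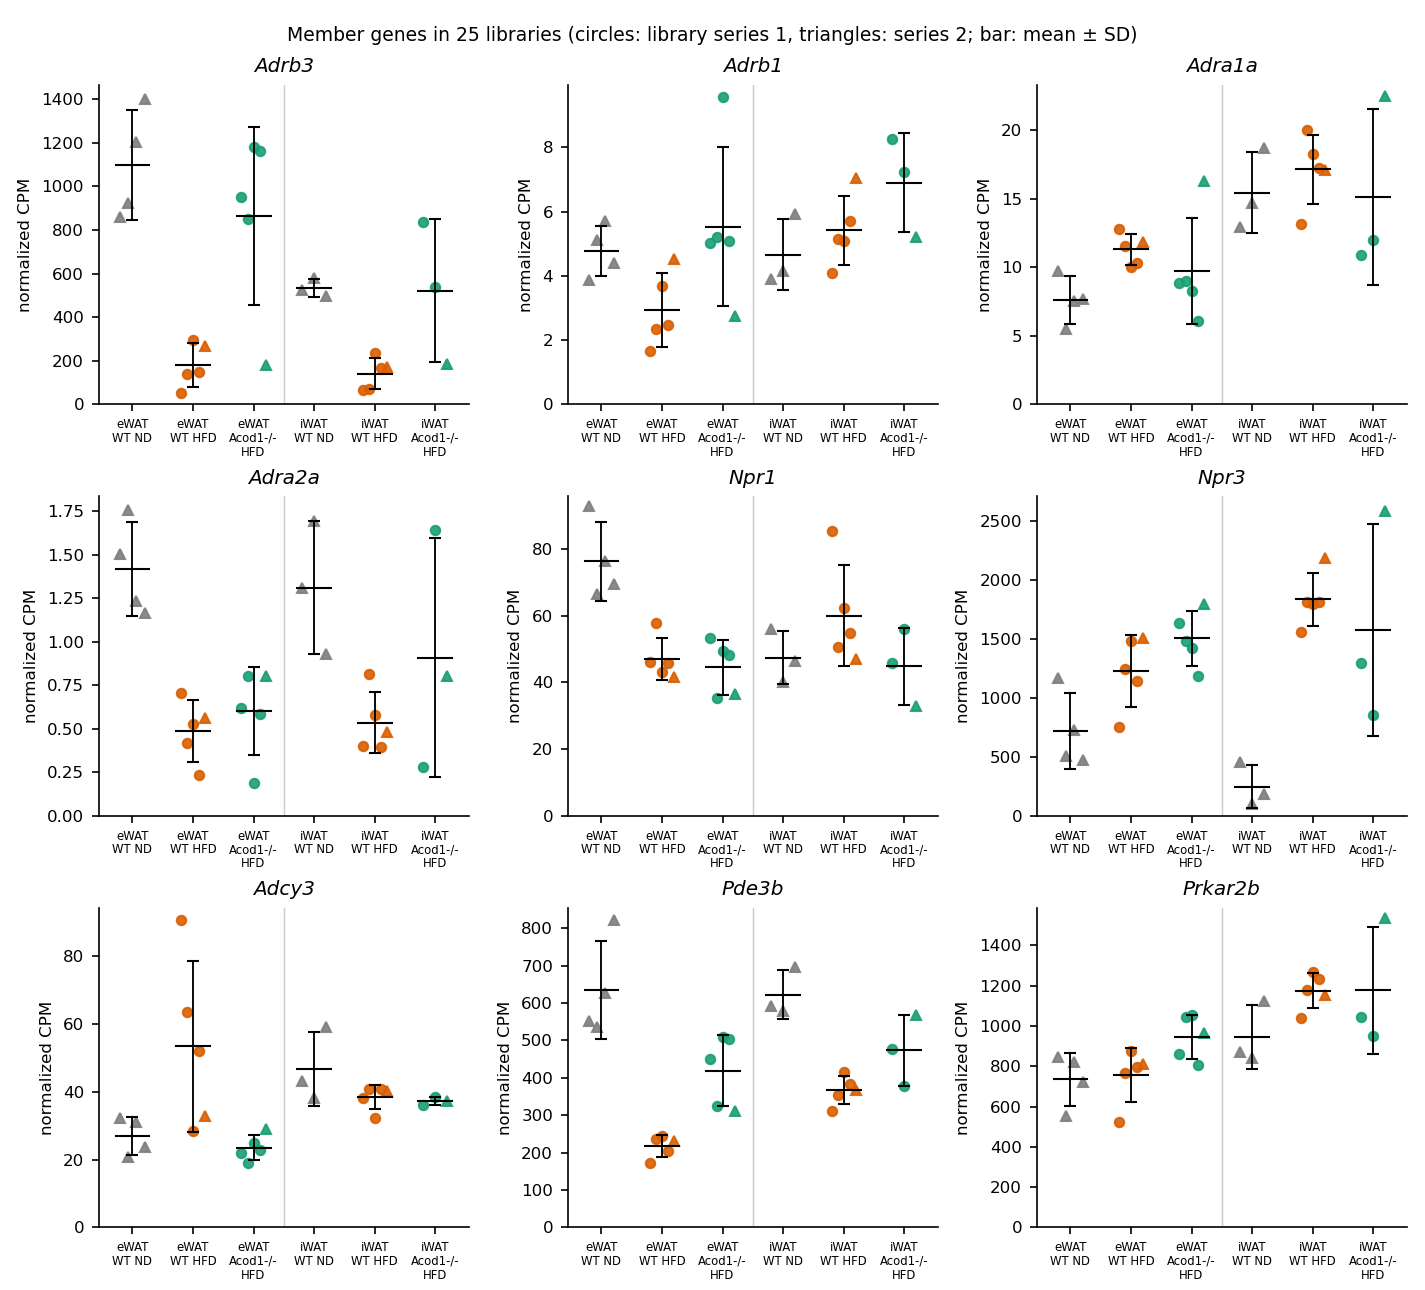
Level of each of the 9 genes (normalized CPM, linear axes from 0) in every library of the 6 groups, with circles for libraries of series 1, triangles for series 2 and bars for the group mean ± SD. Adrb3 lies at 861 to 1399 CPM in eWAT on ND and at 51.9 to 294 CPM in WT mice on HFD, and for Adrb3 the series 2 triangle of each Acod1-/- group lies among the WT HFD libraries.

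Adrb1 (ENSMUSG00000035283, chromosome 19, 56722199 to 56733113), the β receptor better known from the heart, was far less abundant. In eWAT it had 3.88 to 5.70 CPM on ND, 1.65 to 4.53 CPM in WT mice on HFD and 2.76 to 9.56 CPM in Acod1-/- mice, and all 3 ranges overlapped. The diet log2 fold change of -0.70 ± 0.35 was not called (edgeR, adjusted p = 0.116), though it was without Acod1-/- library 3 or 5 (adjusted p = 0.0811 and 0.0763) or WT HFD library 5 (log2 fold change -0.91, adjusted p = 0.0553). Acod1-/- mice had 1.88-fold more than WT mice on HFD (log2 fold change 0.91 ± 0.33, edgeR, adjusted p = 0.0858). That call was lost when any of Acod1-/- libraries 1 to 4, WT HFD libraries 1, 2 or 4 or ND libraries 3 or 4 was left out (adjusted p up to 0.237). It was also lost with series as a term (edgeR, adjusted p = 0.109), with the replicate number as a block (0.108), with only the 2 groups compared (0.146) and without a filter (0.161). Without Acod1-/- library 5 it was 1.08 (edgeR, adjusted p = 0.0271). In iWAT Adrb1 was at 3.91 to 5.92, 4.10 to 7.05 and 5.22 to 8.26 CPM, with no call. In each library Adrb3 exceeded Adrb1 on the FPKM scale. The log2 ratio of the 2 was 7.06 to 7.87 in eWAT on ND and 4.53 to 5.88 in WT mice on HFD, ranges that did not overlap, and 5.59 to 7.40 in Acod1-/- mice.

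Adra1a (ENSMUSG00000045875, chromosome 14, 66635251 to 66771168), an α1 receptor that signals through Gq and calcium, went the other way in eWAT. It was at 5.47 to 9.77 CPM on ND and at up to 12.8 CPM in WT mice on HFD, where the lowest library was still above the highest ND library, with a log2 fold change of 0.57 ± 0.25 (edgeR, adjusted p = 0.0787). The call was lost without any of WT HFD libraries 1, 2 or 5 or ND libraries 2, 3 or 4 (adjusted p 0.107 to 0.187), with the replicate number as a block (0.47, edgeR, adjusted p = 0.119), without a filter (0.59, adjusted p = 0.136) and within series 2 (0.66, adjusted p = 0.262). With series as a term it was 1.06 (edgeR, adjusted p = 0.0218). In Acod1-/- mice libraries 1 to 4 had 6.10 to 9.04 CPM and library 5 had 16.3 CPM, above all WT HFD libraries. The genotype difference was -0.22 ± 0.23 with all libraries (edgeR, adjusted p = 0.571) and -0.49 without library 5 (adjusted p = 0.067). In iWAT it was higher, with 13.0 to 18.7 CPM on ND, 13.2 to 20.1 CPM in WT mice on HFD and 10.9, 12.0 and 22.5 CPM in Acod1-/- mice. Neither iWAT comparison was called, but without iWAT Acod1-/- library 3 the genotype difference was -0.58 (edgeR, adjusted p = 0.0875).

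Adra2a (ENSMUSG00000033717, chromosome 19, 54044151 to 54048982), the Gi-coupled receptor that restrains lipolysis, was close to the limit of detection with 7 to 97 counts. In eWAT it had 1.17 to 1.76 CPM on ND, 0.709, 0.416, 0.525, 0.233 and 0.563 CPM in WT mice on HFD and 0.191 to 0.805 CPM in Acod1-/- mice. Both HFD groups lay below every ND library. In a fit without the filter the diet log2 fold change was -1.51 ± 0.51 (edgeR, adjusted p = 0.0537) and that of genotype 0.26 ± 0.49 (adjusted p = 0.834). In iWAT it was 0.930 to 1.69 CPM on ND and 0.393 to 0.816 CPM in WT mice on HFD, again apart, with -1.26 ± 0.57 (edgeR, adjusted p = 0.15). The Acod1-/- libraries of iWAT ranged from 0.283 to 1.64 CPM. On ND, Adrb3 exceeded Adra2a by a log2 FPKM ratio of 9.21 to 10.4 in eWAT and 8.59 to 9.24 in iWAT.

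Npr3, the clearance receptor, had the largest diet response of the 8 tested members in iWAT. Its levels (ENSMUSG00000022206, chromosome 15, 11839896 to 11907287, minus strand) were 454, 104 and 185 CPM in the iWAT ND libraries and 1563, 1812, 1801, 1816 and 2191 CPM in the WT HFD libraries. The lowest HFD library was more than the highest ND library, and the log2 fold change was 2.92 ± 0.50, or 7.59-fold (edgeR, adjusted p = 0.00115). It was 3.68 without ND library 1 and 3.22 within series 2 (edgeR, adjusted p = 0.0547). In eWAT the levels were 1170, 505, 728 and 475 CPM on ND and 756, 1247, 1481, 1141 and 1505 CPM on HFD, which overlapped. The rise of 0.77 ± 0.27 was called (edgeR, adjusted p = 0.0334) but not without ND library 4 (0.61, adjusted p = 0.102) or within series 2 (1.08, adjusted p = 0.232). Acod1-/- mice had 1185 to 1801 CPM in eWAT and 1295, 856 and 2587 CPM in iWAT, above every ND library in both depots. Against ND the log2 fold change was 1.06 ± 0.27 in eWAT of Acod1-/- mice (edgeR, adjusted p = 0.0223) and 2.69 ± 0.52 in iWAT (adjusted p = 0.00344), or 3.45 in iWAT without ND library 1. Against WT mice on HFD it was 0.30 ± 0.25 in eWAT (edgeR, adjusted p = 0.46) and -0.23 ± 0.44 in iWAT (adjusted p = 0.843). The iWAT value was -0.77 without Acod1-/- library 3 (edgeR, adjusted p = 0.285) and -0.69 within series 1, where it was called (adjusted p = 0.0718). The lncRNA Gm5144 at the Npr3 promoter had 0.259% to 1.30% as many counts as Npr3. Markers of fibroblasts and progenitors summed in iWAT to 1082 to 1440, 2299 to 3080 and 1935 to 3094 CPM (ND, WT HFD, Acod1-/-). They were Pdgfra, Dpt, Col1a1, Pi16 and Dpp4. In eWAT their sum was 579 to 826, 1109 to 2065 and 630 to 1144 CPM in the same order. The part of these cells in the Npr3 values was not tested.

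Npr1, the guanylyl cyclase receptor, was lower on HFD in eWAT. Its levels (ENSMUSG00000027931, chromosome 3, 90450591 to 90465866, minus strand) were 92.8, 66.6, 76.2 and 69.4 CPM on ND and 41.6 to 57.7 CPM in WT mice on HFD, without overlap. The fall was 0.70 on the log2 scale (SE 0.15, edgeR, adjusted p = 0.00292), and within series 2 the log2 fold change was -0.86 (adjusted p = 0.0968). Acod1-/- mice, at 35.2 to 53.4 CPM, also lay below every ND library, with a log2 fold change of -0.77 ± 0.15 against ND (edgeR, adjusted p = 0.00959) and of -0.07 ± 0.14 against WT mice on HFD (adjusted p = 0.768). In iWAT the level was 55.9, 40.2 and 46.2 CPM on ND and 47.1 to 85.3 CPM on HFD, and the log2 fold change of 0.37 ± 0.21 was not called (edgeR, adjusted p = 0.185). With series as a term that iWAT value was -0.02. Acod1-/- mice had 32.8 to 55.8 CPM in iWAT (genotype log2 fold change -0.45 ± 0.21, edgeR, adjusted p = 0.323). Smooth muscle and pericyte markers summed in eWAT to 776 to 1069, 295 to 513 and 393 to 632 CPM (ND, WT HFD, Acod1-/-). Endothelial markers summed there to 445 to 683, 246 to 430 and 299 to 489 CPM. In iWAT the first sum was 485 to 731, 638 to 806 and 534 to 862 CPM. The second was 326 to 424, 440 to 763 and 382 to 484 CPM. The part of these cells in the Npr1 values and in ratios to Npr3 was not tested.

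The balance of the 2 natriuretic peptide receptors within a library needs no scaling between libraries. In eWAT on ND Npr3 exceeded Npr1 by 3.49 to 6.42 times on the FPKM scale. The excess was 8.38 to 18.4 times in WT mice on HFD and 12.5 to 25.2 times in Acod1-/- mice, both apart from ND. In iWAT it was 1.33 to 4.13 times on ND, 9.33 to 23.7 times in WT mice on HFD and 7.81 to 40.2 times in Acod1-/- mice, and ND again lay apart from both HFD groups. WT and Acod1-/- mice on HFD overlapped in both depots.

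Pde3b, the enzyme through which insulin lowers cAMP in adipocytes, was lower on HFD in both depots. In eWAT its levels (ENSMUSG00000030671, chromosome 7, 114415281 to 114539251) were 551, 536, 627 and 823 CPM on ND, 173, 237, 243, 204 and 232 CPM in WT mice on HFD and 449, 325, 508, 503 and 310 CPM in Acod1-/- mice. The 3 groups did not overlap, with Acod1-/- mice between the other 2. The diet log2 fold change was -1.54 ± 0.18 (edgeR, adjusted p = 0.000223) and the genotype log2 fold change 0.94 ± 0.17 (adjusted p = 0.011). Acod1-/- mice remained below ND by a log2 fold change of -0.60 ± 0.18 (edgeR, adjusted p = 0.0411), a call lost without ND library 4 (-0.45, adjusted p = 0.124) and with series as a term (-0.75, adjusted p = 0.134). In iWAT the levels were 591, 579 and 697 CPM on ND, 312, 355, 415, 384 and 366 CPM in WT mice on HFD and 476, 377 and 567 CPM in Acod1-/- mice. The diet difference of -0.74 ± 0.15 was called (edgeR, adjusted p = 0.00329), whereas the genotype difference of 0.35 ± 0.15 was not (adjusted p = 0.288). Within series 2 the iWAT diet value was -0.70 (edgeR, adjusted p = 0.142). Relative to Adipoq, a ratio added after the data were seen, Pde3b was at a log2 FPKM ratio of -5.17 to -4.69 in eWAT on ND, -6.35 to -5.33 in WT mice on HFD and -5.91 to -5.41 in Acod1-/- mice. In eWAT both HFD groups thus lay below ND, and Acod1-/- mice lay inside the WT HFD range, with group means of -5.69 and -5.89. In iWAT the ratio was -4.41 to -4.14, -5.88 to -5.44 and -5.22 to -4.95 in the same order, with Acod1-/- mice apart from both other groups. The part of Adipoq's own level in these Pde3b ratios was not tested.

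Adcy3 (ENSMUSG00000020654, chromosome 12, 4133103 to 4213525), an adenylyl cyclase that makes cAMP, was higher on HFD in eWAT. There it had 32.1, 20.8, 31.2 and 23.8 CPM on ND, 90.8, 63.5, 28.3, 51.9 and 32.9 CPM in WT mice on HFD and 19.1 to 29.1 CPM in Acod1-/- mice. WT HFD libraries 3 and 5 lay within or next to the other groups. The diet log2 fold change was 0.99 ± 0.29 (edgeR, adjusted p = 0.0149), and it was not called with series as a term (0.86, adjusted p = 0.138) or within series 2 (0.30, adjusted p = 0.512). Acod1-/- mice had 2.27-fold less than WT mice (log2 fold change -1.18 ± 0.27, edgeR, adjusted p = 0.0168). In iWAT the level was 38.1 to 59.1 CPM on ND, 32.2 to 40.9 CPM in WT mice on HFD and 36.1 to 38.4 CPM in Acod1-/- mice. The iWAT diet value of -0.26 ± 0.15 was not called (edgeR, adjusted p = 0.18), except without ND library 2 (-0.39, adjusted p = 0.073), and the genotype value was -0.07 ± 0.15 (adjusted p = 0.863).

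Macrophage markers moved with Adcy3 in eWAT. All 8 (Adgre1, Cd68, Csf1r, Itgax, Trem2, Lgals3, Cd14, Lyz2) averaged over 1 CPM in each eWAT group and none was at 0 throughout. Their sum was 397 to 828 CPM on ND, 1962 to 5886 CPM in WT mice on HFD and 412 to 1633 CPM in Acod1-/- mice. WT HFD library 1 had both the highest sum and the most Adcy3, and libraries 3 and 5 the lowest 2 values of both. It also had the least Adrb3 and Pde3b of its group, and the smallest sum of the 6 adipocyte markers in eWAT, 18548 CPM against 20064 to 39435 CPM in the others. In iWAT the macrophage sum was 418 to 514, 512 to 1300 and 390 to 439 CPM (ND, WT HFD, Acod1-/-). With all libraries Adcy3 was not called for diet or genotype there. The part of macrophages in the results was not tested. Cenpo, a gene on the other strand that overlaps Adcy3, had 12.0% to 44.1% as many counts, and whether the counting used strand is not stated in the sources used here. The log2 FPKM ratio of Pde3b to Adcy3 was 3.56 to 4.57 in eWAT on ND, 0.38 to 2.56 in WT mice on HFD and 2.87 to 3.93 in Acod1-/- mice, so the WT HFD group lay below both. In iWAT it was 3.02 to 3.38, 2.48 to 3.14 and 2.75 to 3.38, all overlapping.

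**Figure D2:**
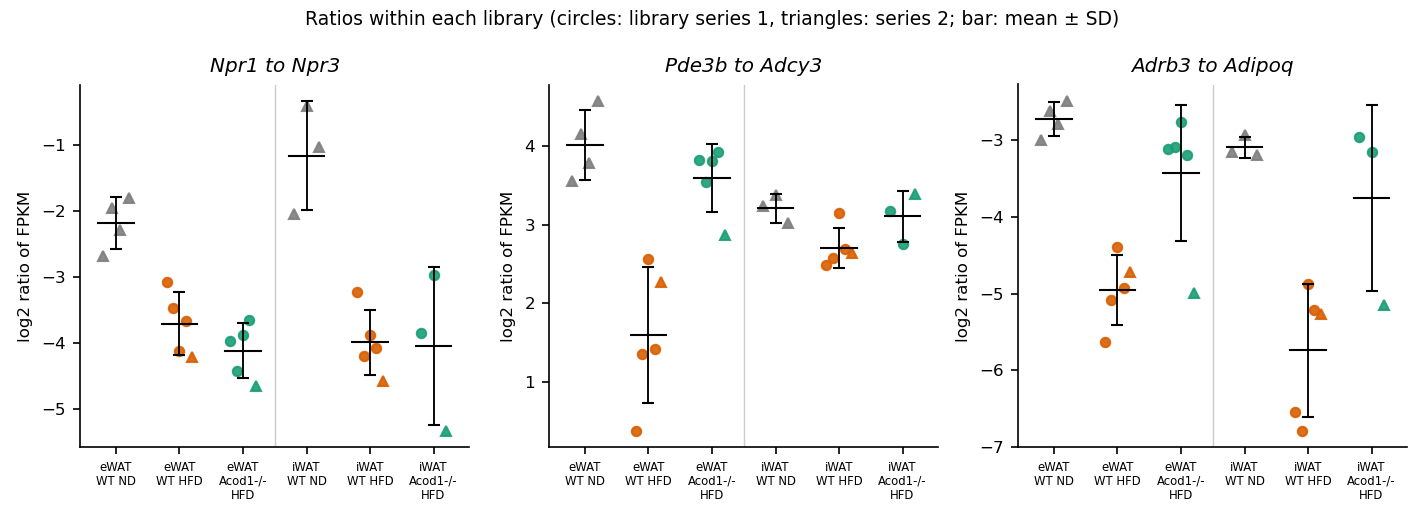
Log2 ratio of FPKM values of 2 genes within each library, by group, with circles for series 1, triangles for series 2 and bars for the mean ± SD. Npr1 to Npr3 is lower on HFD in both depots (in eWAT -2.68 to -1.80 on ND and -4.20 to -3.07 in WT mice on HFD), and Pde3b to Adcy3 is low in eWAT of WT mice on HFD.

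Prkar2b (ENSMUSG00000002997, chromosome 12, 31958476 to 32061296, minus strand), the regulatory subunit of protein kinase A that fat expresses most, was not called for diet or genotype in either depot. In eWAT it was at 554 to 844 CPM on ND, 526 to 877 CPM in WT mice on HFD and 806 to 1052 CPM in Acod1-/- mice. The diet log2 fold change was 0.04 (95% interval -0.32 to 0.40) and the genotype log2 fold change 0.32 (95% interval -0.01 to 0.66), with adjusted p of 0.863 and 0.188 (edgeR). In iWAT it was at 840 to 1126, 1042 to 1270 and 950 to 1538 CPM, with a diet value of 0.34 ± 0.18 (edgeR, adjusted p = 0.156). That value was called without ND library 3 (0.46, edgeR, adjusted p = 0.0799), without Acod1-/- library 3 (0.32, adjusted p = 0.051) and with series as a term (0.61, adjusted p = 0.0693).

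Counted together, 6 of 8 tested members were called for diet in eWAT, where 51.8% of 14936 genes were. Of these 3 rose (Adra1a, Npr3, Adcy3) and 3 fell (Adrb3, Npr1, Pde3b), against 24.8% and 26.9% of all genes. For genotype in eWAT 4 of 8 were called, of which Adrb3, Pde3b and Adrb1 were higher and Adcy3 lower in Acod1-/- mice, where 19.9% of all genes were called, 9.13% higher and 10.8% lower. Both comparisons share the WT HFD libraries, so their values are not independent. Acod1-/- mice on HFD differed from ND mice in 3 of 8 members in eWAT (Npr1, Npr3, Pde3b) with 26.5% of genes called, and in iWAT in Npr3 with 34.6%. In eWAT Prkar2b was called as well by DESeq2 (0.37, adjusted p = 0.0729) and without WT HFD library 1 (0.35, edgeR, adjusted p = 0.0704). Within series 2, where this eWAT comparison rests on Acod1-/- library 5, Npr3 (edgeR, adjusted p = 0.191) and Pde3b (adjusted p = 0.14) were not called. Adrb3 was then called at -2.59 (edgeR, adjusted p = 0.0833), against -0.34 with all libraries (adjusted p = 0.643). In iWAT without Acod1-/- library 3, Pde3b (-0.53, edgeR, adjusted p = 0.0296) and Adrb1 (0.75, adjusted p = 0.0814) were called against ND as well. DESeq2 called Pde3b there on all libraries (-0.38, adjusted p = 0.0703), and within series 2 Adrb3 was called at -1.48 (edgeR, adjusted p = 0.0163), against -0.04 with all libraries. For diet in iWAT 3 of 8 were called, Npr3 higher and Adrb3 and Pde3b lower, where 50.1% of 14801 genes were, 25.9% higher and 24.2% lower. For genotype in iWAT edgeR called 0% of genes and no member. At an unadjusted p under 0.05 there were 2468 genes, with Adrb3 and Pde3b among them, and DESeq2 called 1072 genes and 1 member, Adrb3. Without Acod1-/- library 3, edgeR called 2664 genes and 2 members, Adrb3 and Adra1a.

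**Figure D3:**
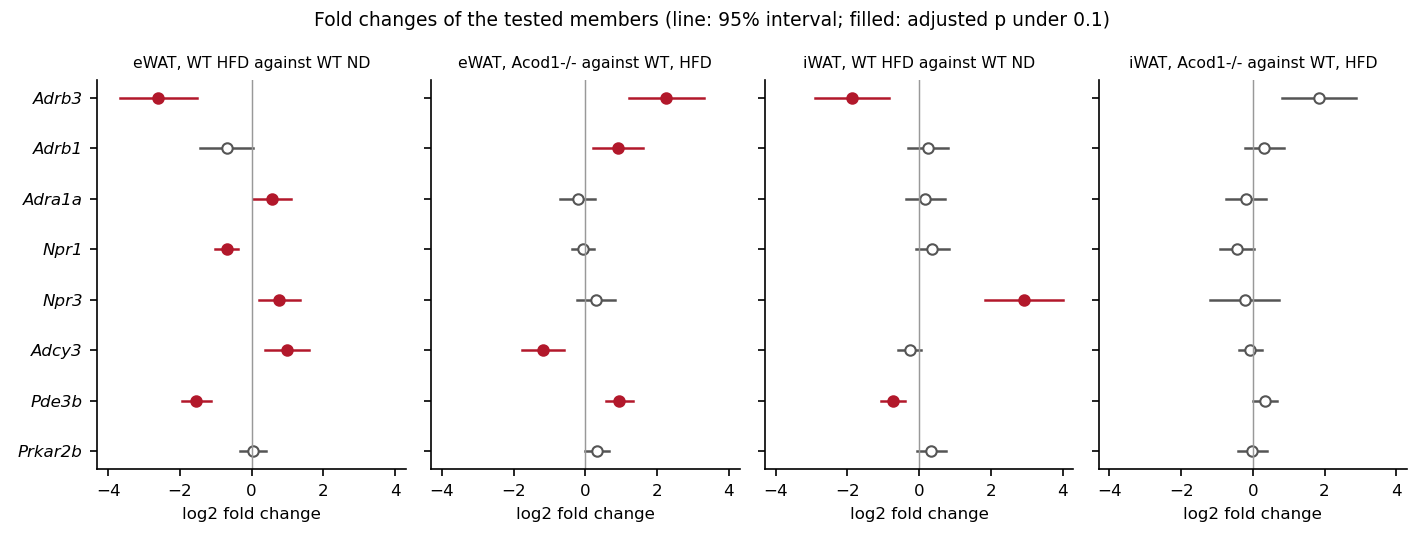
Log2 fold changes of the 8 tested genes in the diet and genotype comparisons of each depot, with 95% intervals as lines and filled points for an adjusted p under 0.1. Adrb3 is at -2.60 for diet and 2.26 for genotype in eWAT, and Npr3 is at 2.92 for diet in iWAT.

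The 2 depots were then compared. On ND, Npr3 was lower in iWAT than in eWAT by a log2 fold change of -1.54 ± 0.41 (edgeR, adjusted p = 0.00911), or -2.31 without iWAT ND library 1, and Npr1 by -0.68 ± 0.21 (adjusted p = 0.0191). Npr1 was not called without iWAT ND library 2 (-0.57, edgeR, adjusted p = 0.115). Adra1a was higher in iWAT by 1.02 ± 0.27 (edgeR, adjusted p = 0.00872) and Adcy3 by 0.80 ± 0.27 (adjusted p = 0.0345), the latter not without iWAT ND library 3 (0.60, adjusted p = 0.179). Adrb3, 497 to 579 CPM in iWAT and 861 to 1399 CPM in eWAT, did not overlap but was not called (-1.04 ± 0.58, edgeR, adjusted p = 0.208). These 4 calls of 8 compare with 31.7% of 15034 genes.

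In WT mice on HFD 4 of 8 members were called, all higher in iWAT, with 18.6% of genes called. Pde3b was higher by 0.75 ± 0.16 (edgeR, adjusted p = 0.00354) and Prkar2b by 0.64 ± 0.15 (adjusted p = 0.00871), and in both the depots did not overlap. Adrb1 was higher by 0.88 ± 0.29 (edgeR, adjusted p = 0.0464), a call lost without eWAT WT HFD library 1 or 4 or iWAT WT HFD library 5 (adjusted p 0.112 to 0.134). Adra1a was higher by 0.60 ± 0.23 (edgeR, adjusted p = 0.0852), a call lost without any one of the eWAT WT HFD libraries, iWAT WT HFD libraries 2 to 5, eWAT Acod1-/- libraries 1 or 3 or eWAT ND libraries 3 or 4 (adjusted p 0.102 to 0.195). In Acod1-/- mice no member was called between depots (3.81% of genes), although 2 had an unadjusted p under 0.05, and DESeq2 called 892 genes.

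The diet response differed between depots in 4 of 8 members, by a test of the difference itself that called 29.0% of genes. Relative to eWAT, the response in iWAT was higher for Npr3 by 2.12 ± 0.52 (edgeR, adjusted p = 0.00612), or 2.89 without iWAT ND library 1, for Npr1 by 1.04 ± 0.27 (adjusted p = 0.00807) and for Pde3b by 0.78 ± 0.25 (adjusted p = 0.0275). It was lower for Adcy3 by a difference of -1.27 ± 0.35 (edgeR, adjusted p = 0.0126). Each of the 4 was called in all 25 fits that left out 1 library and with series as a term. No member was called for a difference of the genotype response between depots (1 gene, 0.00665%, was). At an unadjusted p under 0.05 there were 1524 genes and 2 members, Adcy3 and Pde3b, and DESeq2 called 96 genes. With the replicate number as a block, 484 genes and 1 member were called for this difference.

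Ordered by mean CPM, the 6 groups of most members formed a continuum in which neighbours overlapped. For Pde3b WT HFD of eWAT was lowest and apart from WT HFD of iWAT, the next, and ND of iWAT was apart from Acod1-/- of iWAT below it. For Npr3 ND of iWAT was lowest and apart from ND of eWAT. For Adcy3 the 2 lowest groups, Acod1-/- and ND of eWAT, were apart from all iWAT groups above them. For Adrb3 the order rose from WT HFD of iWAT and eWAT, which overlapped, through Acod1-/- and ND of iWAT to Acod1-/- and ND of eWAT, and every neighbouring pair overlapped.

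The 10 lists of pathway genes hold 110 genes, members included. Their counts stand beside the shares of all genes called, which were 24.8% higher and 26.9% lower for diet in eWAT, 9.13% higher and 10.8% lower for genotype in eWAT, and 25.9% higher and 24.2% lower for diet in iWAT. Within series 2, 29 of 48 diet calls followed for genes of these lists were lost, and with series as a term 9 of 66 diet and genotype calls were. Among the 9 adrenergic receptor genes 6 were tested, and Adrb3, Adra1a and Adrb1 are described above. The list's median log2 fold change was -0.27 for diet in eWAT, 0.35 for genotype in eWAT and 0.21 for diet in iWAT, where the median of all genes was -0.04, 0.04 and 0.00. Among 10 natriuretic genes 4 were tested in eWAT and 5 in iWAT. The peptide genes Nppa, Nppb and Nppc were below the filter. Npr2, the receptor of C-type natriuretic peptide, went with Npr1 on diet in eWAT (-1.25 ± 0.20, edgeR, adjusted p = 0.000731, 92.9 CPM on ND and 39.2 CPM on HFD) but was higher in Acod1-/- mice (0.81 ± 0.19, adjusted p = 0.0194, 68.8 CPM). Mme, a protease that degrades natriuretic peptides, rose on HFD in iWAT (0.90 ± 0.23, edgeR, adjusted p = 0.0107).

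Of 12 genes of G proteins and receptor desensitisation 3 rose and 2 fell for diet in eWAT, 2 were higher and 5 lower in Acod1-/- mice, and 7 rose and 3 fell for diet in iWAT, with medians of 0.12, -0.22 and 0.30. Gnai1, an inhibitory G protein subunit, fell on HFD in eWAT (-0.94 ± 0.17, edgeR, adjusted p = 0.0011), and the β-arrestin Arrb2 rose (1.11 ± 0.20, adjusted p = 0.00128). In Acod1-/- mice Arrb2 (-1.11 ± 0.19, edgeR, adjusted p = 0.011) and Gnal (-2.63 ± 0.55, adjusted p = 0.0136), which encodes a stimulatory α subunit, were lower than in WT mice. In iWAT the receptor kinase Grk2 (-1.25 ± 0.12, edgeR, adjusted p = 9.40e-05) and Rgs2 (-2.61 ± 0.42, adjusted p = 0.000838), which speeds GTP hydrolysis, fell on HFD. The lymphocyte markers went the same way in iWAT, from 370 to 561 CPM on ND to 2.90 to 37.6 CPM in WT mice on HFD, and their part in these falls and in that of Adcy7 was not tested. Of 8 adenylyl cyclases tested in eWAT 2 rose and 3 fell on HFD, and of 7 in iWAT 2 fell, with medians of -0.83 and -0.16. Adcy6 (-1.11 ± 0.15, edgeR, adjusted p = 0.000282) and Adcy4 (-1.45 ± 0.27, adjusted p = 0.00141) fell in eWAT where Adcy3 rose. In Acod1-/- mice 2 cyclases were higher and 2 lower, Adcy6 (0.49 ± 0.14, edgeR, adjusted p = 0.0377) and Adcy10 (2.45 ± 0.67, adjusted p = 0.0321, 2.06 CPM against 0.373 CPM) among the higher, with a list median of 0.17. Adcy7 (-1.58 ± 0.26, edgeR, adjusted p = 0.000978) and Adcy10 (-1.91 ± 0.78, adjusted p = 0.070) fell in iWAT, Adcy10 not without WT HFD library 2 (-1.91, adjusted p = 0.119) or 5 (-1.82, adjusted p = 0.122). Adcy10 also lost that call with series as a term (edgeR, adjusted p = 0.161), with the replicate number as a block (0.143), within series 2 (0.144) and without a filter (0.102).

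Of 13 protein kinase A and anchoring genes tested 3 rose and 3 fell for diet in eWAT and 3 rose and 2 fell in iWAT, with medians of 0.04 and 0.13, and 1 was higher and none lower in Acod1-/- mice in eWAT. The anchoring proteins Akap1 (-0.82 ± 0.12, edgeR, adjusted p = 0.000409) and Akap12 (-1.25 ± 0.21, adjusted p = 0.000823) fell on HFD in eWAT. In iWAT Akap1 fell (-0.53 ± 0.14, edgeR, adjusted p = 0.0111) and the catalytic subunit Prkaca rose (0.60 ± 0.14, adjusted p = 0.00566). Akap1 was higher in Acod1-/- mice (0.31 ± 0.11, edgeR, adjusted p = 0.091), a call lost without any one of Acod1-/- libraries 2 to 5, WT HFD libraries 1 to 3 or the ND libraries. Of 16 phosphodiesterases tested 2 rose and 4 fell for diet in eWAT and 3 rose and 4 fell in iWAT, with medians of -0.24 and -0.12. Pde1a, which breaks down both cyclic nucleotides, fell in eWAT (-1.95 ± 0.27, edgeR, adjusted p = 0.000382) and iWAT (-0.91 ± 0.20, adjusted p = 0.00396) and was higher in Acod1-/- than in WT mice in eWAT (1.07 ± 0.26, adjusted p = 0.0206), the directions Pde3b took. Pde4c fell in eWAT (-2.14 ± 0.40, edgeR, adjusted p = 0.00137) and Pde8a rose in iWAT (0.61 ± 0.13, adjusted p = 0.0033). In Acod1-/- mice 2 phosphodiesterases were higher and Pde1b lower (-0.72 ± 0.24, edgeR, adjusted p = 0.0674), not without Acod1-/- libraries 2, 3 or 4 or WT HFD libraries 1 or 2.

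Of 8 other receptors that restrain lipolysis 2 rose and 2 fell for diet in eWAT and 3 rose and 2 fell in iWAT, with medians of -0.17 and 0.16. Ptger3, a receptor of prostaglandin E2, rose in eWAT (1.69 ± 0.27, edgeR, adjusted p = 0.00067, 36.8 to 119 CPM on average) and in iWAT (2.83 ± 0.24, adjusted p = 5.64e-05, 28.7 to 201 CPM). The lactate receptor Hcar1 fell in iWAT (-0.93 ± 0.19, edgeR, adjusted p = 0.00284). The insulin receptor Insr fell in eWAT (-0.89 ± 0.15, edgeR, adjusted p = 0.000827) and was the 1 gene of this list called between genotypes in eWAT (0.68 ± 0.14, adjusted p = 0.0136). Among 8 genes of noradrenaline handling 4 were tested, and Th, Dbh, Slc6a2 and Slc18a2, genes of the sympathetic neuron, were below the filter in both depots. Maoa, which oxidises noradrenaline, rose on HFD in eWAT (1.01 ± 0.31, edgeR, adjusted p = 0.0178) and iWAT (1.46 ± 0.26, adjusted p = 0.00153), and the transporter Slc22a3 rose in iWAT (1.14 ± 0.17, adjusted p = 0.000555). Maob fell in eWAT (-1.09 ± 0.20, edgeR, adjusted p = 0.00136) and was higher in Acod1-/- mice (0.79 ± 0.19, adjusted p = 0.0208).

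Of 9 genes of the lipolytic machinery none rose and 3 fell for diet in eWAT, 4 rose and none fell in iWAT, and 2 were higher in Acod1-/- mice in eWAT, with medians of -0.24, 0.10 and 0.34. Perilipin 1 (Plin1, -0.66 ± 0.21, edgeR, adjusted p = 0.0232) and the triglyceride lipase Pnpla2 (-0.58 ± 0.21, adjusted p = 0.042) fell in eWAT. Neither was called with series as a term (edgeR, adjusted p = 0.169 and 0.196), nor Pnpla2 without ND library 4 (-0.45, adjusted p = 0.133). The third gene that fell, Lipe (-0.63 ± 0.24, edgeR, adjusted p = 0.0472), was not called with series as a term either (-0.56, edgeR, adjusted p = 0.23), and none of the 3 was called within series 2 (adjusted p 0.65 to 0.823). Plin1 (0.67 ± 0.20, edgeR, adjusted p = 0.0471) and the hormone-sensitive lipase Lipe (0.75 ± 0.23, adjusted p = 0.0481) were higher in Acod1-/- mice, neither without Acod1-/- library 3 or WT HFD library 4. In iWAT the monoglyceride lipase Mgll (1.04 ± 0.21, edgeR, adjusted p = 0.00245) and Fabp4 (0.76 ± 0.19, adjusted p = 0.00881) rose. Cidec and G0s2 were called higher there as well. The list holds genes that restrain lipolysis beside genes that carry it out, so its counts give no direction of lipolysis. Fabp4, Cidec and Plin1 are themselves adipocyte markers, and the marker sum was also higher in iWAT on HFD. The part of adipocyte content in the calls of this list was not tested. Of 11 transcripts known to be induced by cAMP in eWAT 3 rose and 5 fell on HFD and 3 were lower in Acod1-/- mice, and of 12 in iWAT 3 rose and 5 fell, with medians of -0.64, 0.09 and -0.42. The immediate early genes Atf3 (3.93 ± 0.72, edgeR, adjusted p = 0.00129) and Fos (2.43 ± 0.57, adjusted p = 0.00482) rose in eWAT and were lower in Acod1-/- mice (-2.98 ± 0.63, adjusted p = 0.0136, and -2.06 ± 0.52, adjusted p = 0.0234). The macrophage marker sum given above was also highest in eWAT of WT mice on HFD, and its part in the eWAT values of Atf3, Fos, Arrb2, Gnal and Adcy7 was not tested. In iWAT Fos rose (2.77 ± 0.53, edgeR, adjusted p = 0.00207) and Nr4a3 fell (-1.83 ± 0.32, adjusted p = 0.00136). Between genotypes in iWAT edgeR called no gene of the 10 lists, where it called 0% of all 14801 genes. DESeq2 called 1072 genes there, with Adrb3 of the adrenergic receptor list among them.

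**Figure D4:**
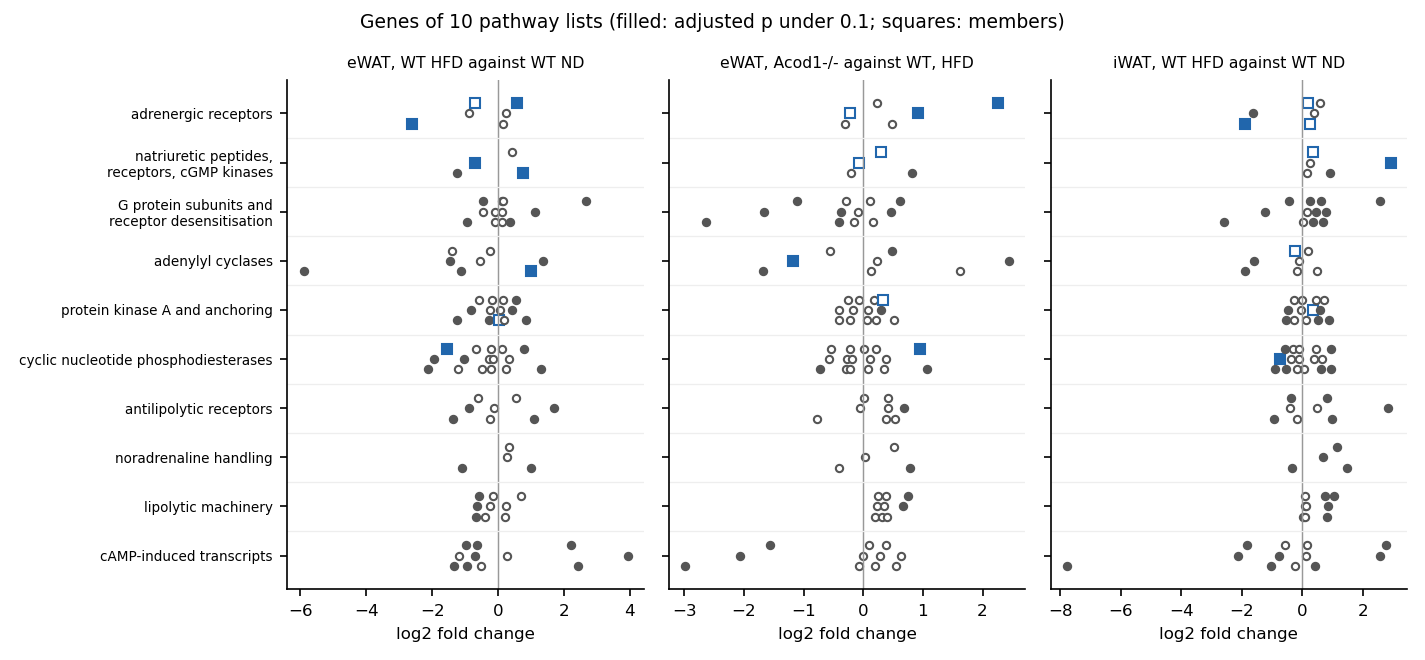
Log2 fold changes of every tested gene of the 10 pathway lists for diet in eWAT, genotype in eWAT and diet in iWAT, filled where the adjusted p was under 0.1, with squares for the 8 genes described above that were tested. In the lipolytic machinery the called genes are lower in eWAT on HFD (3 of 9, beside 26.9% of all genes) and higher in iWAT (4 of 9, beside 25.9%), and the 3 in eWAT were not called with series as a term. Fabp4 and Cidec, among the 4 in iWAT, and Plin1, among the 3 in eWAT, are themselves adipocyte markers. The list also holds genes that restrain lipolysis.

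The genes whose log2 CPM followed each tested member most closely were found over all 25 libraries and 15033 other genes. The r values describe points that share 6 groups and their diets, and are not tests. For Adrb3 they were Gm45470, its own antisense gene (r = 0.948), Lrig1 (0.906) and Klhl2 (0.904). Gm45470 overlaps Adrb3 and the strand setting of the counting is not given. Whether reads of Adrb3 were counted for Gm45470 was not tested. For Npr3 they were Ahnak (0.972), Fads3 (0.969) and Prr32 (0.966), and for Pde3b they were Pde1a (0.955), Ces1d (0.954) and Aldh6a1 (0.939). Adra1a was followed by the phosphodiesterase Pde7b (0.886), Otop1 (0.867) and Lhx8 (0.856), and Npr1 by Itpkb (0.862), Nlgn2 (0.842) and Pear1 (0.841). Those nearest Adrb1 were Gm15417 (0.896), Blcap (0.895) and A430046D13Rik (0.889). Adcy3 was nearest to Wipf1 (0.856), Mex3b (0.852) and Gng2 (0.846), and Prkar2b to Sfxn5 (0.893), Ormdl3 (0.889) and Idh3a (0.863).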

How the data were processed

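mRNA libraries of eWAT and iWAT were made with a directional kit and sequenced by the authors. Per the labels and the study's methods, reads were trimmed with cutadapt, reads under a minimum length and contaminants were removed, and the rest were aligned with STAR to GRCm38 (mm10) with GENCODE genes. The program and strand setting used for counting are not given in the sources used here. The deposited files hold raw counts per gene and FPKM values, which the authors computed per library, and FPKM recomputed from the counts differed by at most 0.0005. Reads outside genes (6.41% to 11.9%) and ambiguous reads (1.52% to 2.07%) stayed out of library sizes and tests. Identifiers were joined to symbols of GENCODE (54723 of 54752).

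Counts were normalized with TMM and tested with edgeR 4.0.16 (quasi-likelihood, R 4.3.3) in 1 fit per depot and 1 fit over all 25 libraries for depot comparisons, after a filter of a mean of 1 CPM. P-values were adjusted over every gene in the fit, and calls needed an adjusted value under 0.1. The tests were also run on simulated data with known changes, in which they missed some changes and made some false calls. Alternatives were DESeq2 1.42.0, its size factors, other filters, a stricter threshold, the replicate number as a block, the library series as a term or alone, only the 2 groups compared, and each library left out. Members, lists and tests were chosen with earlier results of these data known. Named pathway genes are the up to 2 called genes with the smallest adjusted p per list in each diet and genotype comparison within a depot, and the 3 genes with the highest r per member. A result that this rule names is not reported here.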

Additional observations from a re-analysis of the deposited data

Results flagged for a closer look

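In 36 sets of values, 9 genes in the 4 groups of 4 or 5 libraries, the highest or lowest library was compared with the rest by Dixon's criterion, which chance passes in about 1 of 20 sets. Adra1a passed in eWAT of Acod1-/- mice, where library 5 had 16.3 CPM. Npr1 passed in eWAT of WT mice on HFD, where library 2 had 57.7 CPM.

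The diet response differed between depots by the test of the difference itself (iWAT response minus eWAT response, log2, edgeR) for Npr1 (1.04), Npr3 (2.12), Pde3b (0.78) and Adcy3 (-1.27).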

How the results depend on the processing

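Diet is nearly confounded with library series, and low counts limit Adra2a. Within series 2, eWAT diet called 2077 genes and 3 members, eWAT Acod1-/- against ND 940 genes, iWAT diet 2841 genes and iWAT Acod1-/- against ND 2 members. With series as a term, eWAT diet called 5139, eWAT Acod1-/- against ND 1048 and iWAT genotype 4 genes. For iWAT genotype, 2157 genes and 2 members were called within series 1, 1072 genes and 1 member by DESeq2, 91 genes with 1 CPM in every library, 77 without a filter and 5 with DESeq2's size factors. Between depots in Acod1-/- mice, 248 genes were called with 1 CPM in every library and 892 by DESeq2. The genotype response differed between depots in 96 genes by DESeq2. Without a filter, 2 members were called between depots on HFD. In iWAT Acod1-/- against ND, 2 members were called with 1 CPM in every library and by DESeq2. At an adjusted p under 0.05 there were 1717 genes for eWAT genotype, 2358 for eWAT Acod1-/- against ND and 305 between depots in Acod1-/- mice. The cause of these changes was not tested.

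Replicate numbers were not taken as pairs, since not every same-number pair correlated above 0.1. That rule asks every pair to pass, so it cannot show whether libraries of the same number came from the same mouse. If they did, the depot tests ignore a pairing. In eWAT 9 of 13 same-number pairs did, in iWAT 4 of 9 and across depots 5 of 11, against 11 of 52, 8 of 30 and 7 of 41 pairs with different numbers, and 5 of 14, 3 of 9 and 13 of 22 libraries correlated best with their own number. With the replicate number as a block, 484 genes and 1 member were called for the genotype response between depots.

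The direction turned in results that were not called. Within series 2, Acod1-/- against ND gave -0.78 for Adrb1 and 0.12 for Adcy3 in eWAT and 0.60 for Adra1a in iWAT. With series as a term Adra1a gave 0.26 there and Npr1 -0.0219 for iWAT diet, and without a filter Adra1a gave 0.0083. Prkar2b for iWAT genotype gave 0.0076 with 1 CPM in every library, 0.0136 by DESeq2 and with its size factors, 0.0113 without a filter and 0.0128 with only the 2 groups.

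Leaving out 1 library at a time gave 1709 to 4238 genes for eWAT genotype, 2530 to 4392 genes for eWAT Acod1-/- against ND, 0 to 2664 genes for iWAT genotype, 3293 to 5229 genes for iWAT Acod1-/- against ND, 2931 to 5061 genes for depot on ND, 1672 to 3005 genes for depot on HFD, 165 to 1033 genes for depot in Acod1-/- mice and 1 to 391 genes for depot by genotype. Members called ranged over 0 to 2 for iWAT genotype, 1 to 3 for iWAT Acod1-/- against ND, 2 to 4 for depot on HFD and 0 to 1 for depot in Acod1-/- mice. The log2 fold changes whose direction turned ranged over -0.88 to 0.039 for Adrb3 in depot by genotype, -0.067 to 0.14 for Prkar2b in eWAT diet, -0.15 to 0.0036 for Npr1 in eWAT genotype, -0.0805 to 0.37 for Adrb1 in eWAT Acod1-/- against ND, -0.58 to 0.018 for Adra1a in iWAT genotype, -0.77 to 0.0803 for Npr3 in iWAT genotype, -0.23 to 0.14 for Prkar2b in iWAT genotype, -0.42 to 0.18 for Adra1a in iWAT Acod1-/- against ND, -0.54 to 0.38 for Adrb3 in iWAT Acod1-/- against ND and -0.26 to 0.11 for Npr1 in iWAT Acod1-/- against ND. Without iWAT Acod1-/- library 3 the counts were highest for iWAT genotype (2664), depot in Acod1-/- mice (1033) and depot by genotype (391). They were lowest without eWAT WT HFD library 1 for eWAT genotype (1709) and depot on HFD (1672), without eWAT ND library 2 for eWAT Acod1-/- against ND (2530), without iWAT ND library 2 for iWAT Acod1-/- against ND (3293) and depot on ND (2931), and without iWAT Acod1-/- library 2 for depot in Acod1-/- mice (165).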
